A study of Mus musculus with 6 samples.

Results

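The genes described here are Srf, which encodes serum response factor, and 9 genes of the smooth muscle contractile apparatus: the smooth muscle actins Acta2 and Actg2, the actin-binding proteins transgelin (Tagln) and calponin (Cnn1, Cnn2), the myosin regulatory light chain Myl9, and the tropomyosins Tpm1, Tpm2 and Tpm4. They were taken by name from a deposited table of 54532 genes, and all 10 were found. The table is of MC3T3-E1 cells, a pre-osteoblast line from newborn mouse calvaria. The samples titled nc, called controls here, had 3 days of osteogenic induction (OI, n = 3). They are compared with the same cells given 0.2 mM metformin as well (OI + Met, n = 3). Dose, time and the medium of the controls come from the text of the study. The labels give neither dose nor time. Every sample was kept in osteogenic medium with β-glycerophosphate, ascorbic acid and dexamethasone, so the controls carry these agents too, and there is no group without induction. Metformin, a biguanide, is a common drug for type 2 diabetes. The model is a single established line in culture, and in bulk RNA a larger share of cells with a transcript and more transcript per cell cannot be told apart.

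Serum response factor is a transcription factor that binds a short DNA element called the CArG box. Its partners of the myocardin family, MRTF-A and MRTF-B, are held in the cytoplasm by monomeric actin. They enter the nucleus when actin assembles into filaments, and with serum response factor they then switch on actin, tropomyosin, calponin and light chain genes. Partners of the Elk family bind the same factor and direct it to immediate early genes such as Fos. In bone, smooth muscle actin is known as a marker of mesenchymal progenitors and pericytes that can give rise to osteoblasts.

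Levels are given in FPKM, a read count made relative to gene length and library size. Whole reads could be worked back from them, and these came to 18399861 to 20652437 per sample in OI and 19256672 to 22111790 in OI + Met. At this depth 3 reads of a gene, the limit that a count of 0 allows, made up no more than 1.63e-05% of any sample, with counting error alone considered. Control replicate 1 stood apart from the others. Across 12681 genes its log2 values had Pearson correlations of 0.96 and 0.952 with the other controls, which had 0.988 with each other, and how far it deviated from them went with gene GC content (Spearman coefficient -0.668, across genes). Among the members, Srf has the most GC (64.4% in its longest transcript) and stood in control replicate 1 at 48.1% of the mean of the other controls, while Tpm4 has the least (45.9%) and stood at 115%. Results are therefore also given without that library.

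Smooth muscle actin and its contractile partners were higher with metformin. The largest rises were those of Acta2 (5.37-fold in mean FPKM), Myl9 (4.83-fold) and Actg2 (4.47-fold), and those of Srf, Cnn2 and the tropomyosins lay between 1.78-fold and 2.31-fold. Of the 10 members, 9 had a mean FPKM of at least 0.5 and were tested, and all 9 were called higher at an adjusted p-value under 0.05 (limma-trend with Benjamini-Hochberg adjustment), against 13.2% of the 12681 tested genes called higher (1670 genes) and 9.28% called lower (1177 genes). With each library corrected for GC content that split was 2062 higher and 2433 lower, and all 9 members were still called higher. For each of the 9 the OI + Met samples lay above every control, which was so for 23.6% of tested genes. Tagln passed the FPKM limit only because of its level with metformin, so the count that does not rest on it is 8 of 8. The median log2 fold change of the 9 was 1.17, where that of all tested genes was 0.01. Without control replicate 1 the same number, 9, was called, in a fit that called 2969 of all genes higher. Together the 10 genes held 0.183% ± 0.0199 (SD, n = 3) of all reads in OI and 0.526% ± 0.00271 (SD, n = 3) in OI + Met.

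**Figure D1:**
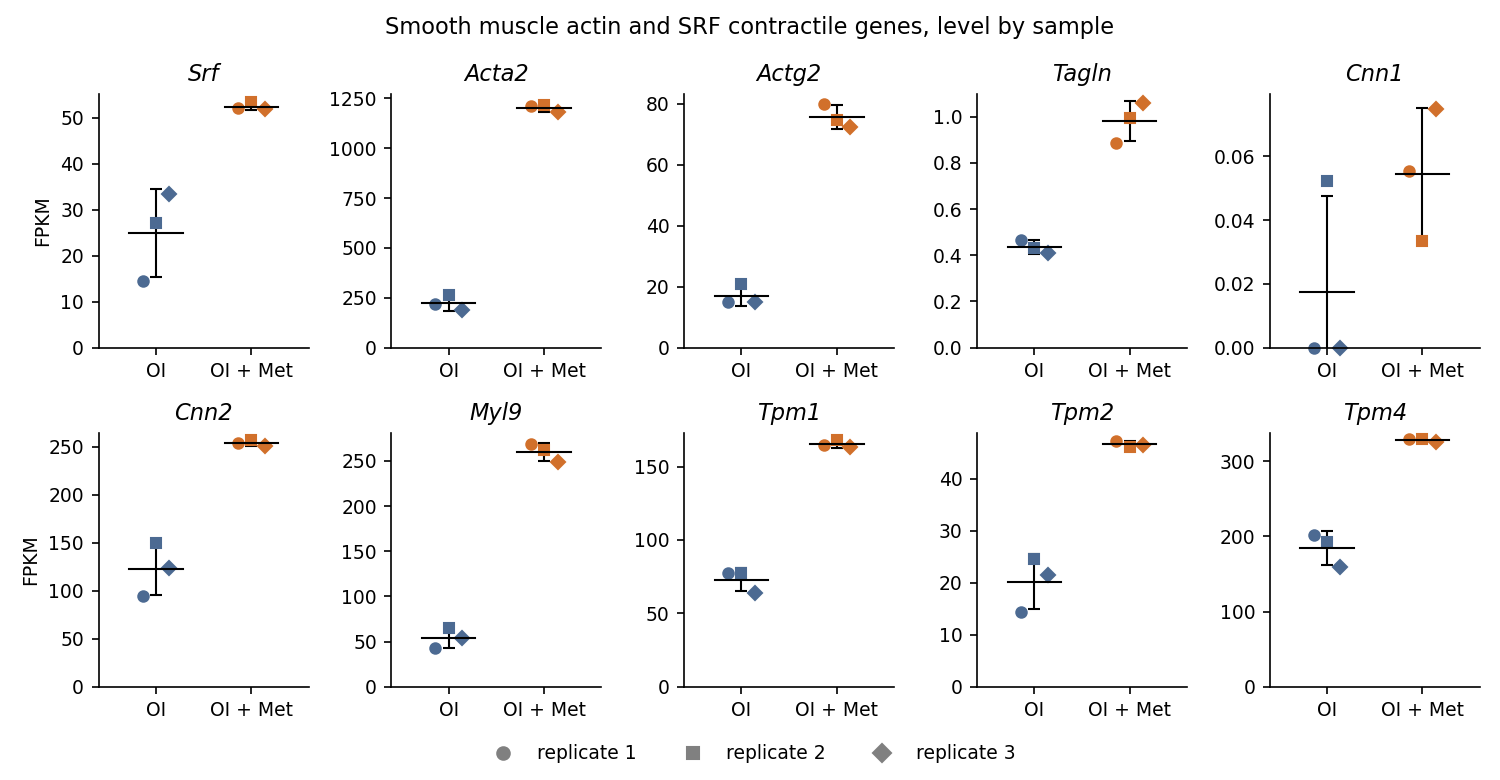
Level of each member in FPKM (y axis, from 0) in the 3 OI and the 3 OI + Met samples. Symbols are samples, horizontal lines group means and bars the SD. For every member but Cnn1 the orange points lie above all the blue ones, and Srf shows control replicate 1 lowest, at 14.5 FPKM.

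Promoter sequence was looked at because the members share a known regulator. The list was chosen around that regulator, so elements in its windows describe the list and are no test of the regulator. RefSeq windows of 300 bases (GRCm38.p6, 250 before the annotated start and 50 after it) were at hand for 8 of the 10 members, and no window was used for Actg2 and Tagln. A CArG box was taken as CC, then 6 bases that are A or T, then GG, and a CArG-like element as the same with 5 of those 6 bases A or T. Both strands were read, and by this definition the elements cannot be the same bases. A CArG box lay in the windows of 3 members, Srf, Cnn2 and Myl9, where 1.63% of all 32817 windows held one. With CArG-like elements counted, 4 members held one, Acta2 being the fourth, against 9.99% of all windows. The Srf, Acta2 and Myl9 windows each held a pair of such elements, which 0.823% of all windows did. The stretches that carry them are shown here 5′ to 3′ on the strand of the gene, all before the start, with the elements in capitals.
Srf, chr17:46556195-46556264, minus strand: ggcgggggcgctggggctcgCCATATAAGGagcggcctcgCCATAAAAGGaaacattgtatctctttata
Acta2, chr19:34255378-34255477, minus strand: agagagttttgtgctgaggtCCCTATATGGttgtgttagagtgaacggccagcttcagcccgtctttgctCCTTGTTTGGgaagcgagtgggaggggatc
Myl9, chr2:156775283-156775394, plus strand: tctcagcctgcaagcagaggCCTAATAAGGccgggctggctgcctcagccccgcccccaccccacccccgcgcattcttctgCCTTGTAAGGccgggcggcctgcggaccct
Cnn2, chr10:79988524-79988573, plus strand: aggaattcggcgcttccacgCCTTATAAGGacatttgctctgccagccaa

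The elements of Srf begin 82 and 62 bases before the start, those of Acta2 84 and 34 bases, those of Myl9 161 and 99 bases, and that of Cnn2 56 bases. The windows of Cnn1, Tpm1, Tpm2 and Tpm4 held neither form, which says nothing of sequence outside 300 bases. The hexamer GGAATG, read on both strands and known as the MCAT element of TEAD factors, lay in the windows of Acta2 and Tpm1 and in 14.7% of all windows. Among the related genes outside the members, 9 of 10 had a window, and 4 of them held a CArG box: the sarcomeric actins Acta1 and Actc1, the cytoplasmic actin Actg1 and the light chain Myl6. With CArG-like elements counted, 6 held one, Myl12a and Tpm3 being the others. The Acta1 window held 1 box and 2 CArG-like elements and that of Actc1 held 1 and 3, so several elements in a window were not particular to the members. A match is a stretch of letters and no measurement of binding.

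**Figure D2:**
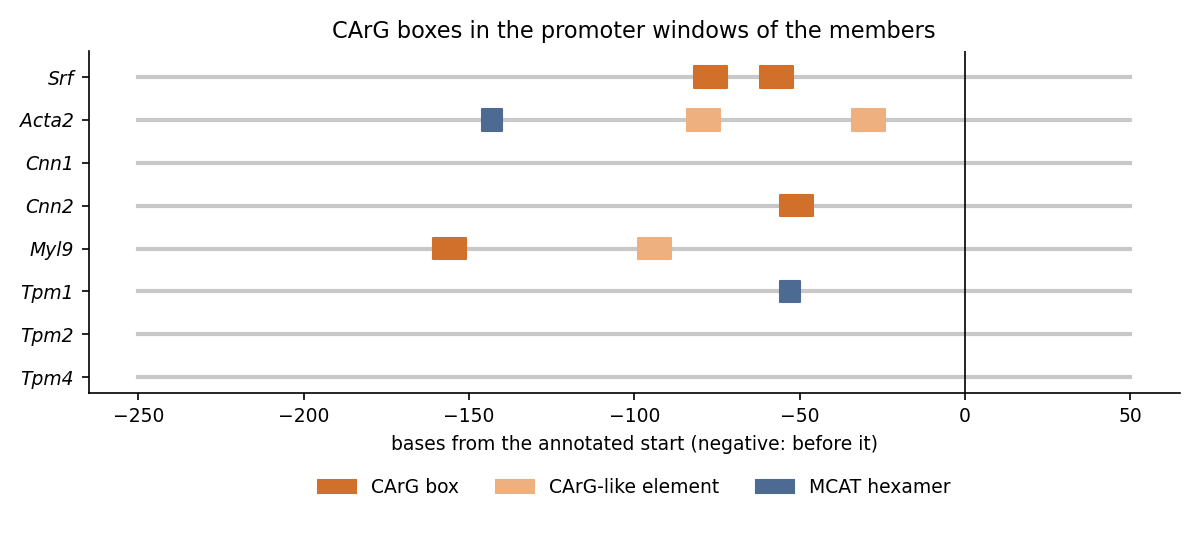
Position of CArG boxes, CArG-like elements and MCAT hexamers in the promoter windows of the 8 members that had one, in bases from the annotated start (x axis, 250 before to 50 after). Srf, Acta2 and Myl9 each show a pair of CArG elements, Cnn2 shows a single one, and Cnn1, Tpm2 and Tpm4 show none of the motifs.

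The first question was the level of the regulator. Srf (ENSMUSG00000015605, chromosome 17, 46548329 to 46556175) had 14.5, 27.2 and 33.3 FPKM in the OI samples and 52, 53.3 and 51.8 FPKM in the OI + Met samples. The controls were spread widely and the OI + Met samples were close together, and the groups did not overlap. The means were 25 ± 9.55 and 52.4 ± 0.808 FPKM (SD, n = 3 each), a log2 fold change of 1.11 on log2(FPKM + 1) with a standard error of 0.28 (limma-trend adjusted p = 0.0299). Without control replicate 1 the log2 fold change fell to 0.78 and the adjusted p-value was 0.000889. The call was lost without control replicate 2 (adjusted p = 0.0651) and without metformin replicate 1 (adjusted p = 0.096), 2 (adjusted p = 0.103) or 3 (adjusted p = 0.0939), while the log2 fold change stayed between 1.10 and 1.21 in these 4 fits.

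The partners of Srf moved less. Mkl1, the gene of MRTF-A, had 12.1 ± 3.86 FPKM in OI and 13.2 ± 0.616 in OI + Met, with overlapping groups (log2 fold change 0.16, standard error 0.22, limma-trend adjusted p = 0.647). Mkl2, the gene of MRTF-B, had 4.81 ± 0.272 and 4.65 ± 0.433 FPKM, again with overlap (log2 fold change -0.04, standard error 0.09, adjusted p = 0.777). These p-values do not show that the levels were equal. Myocd, which encodes the smooth muscle partner myocardin, had 0 reads in all 6 samples. Of the Elk family, Elk3 rose from 13.5 ± 0.351 to 19.6 ± 0.991 FPKM (log2 fold change 0.51, adjusted p = 0.00545). Elk1 rose from 3.89 ± 0.882 to 6.32 ± 0.128 FPKM (log2 fold change 0.60, adjusted p = 0.0226). Its call was lost with no filter on low values, without control replicate 2 and without each of the metformin replicates (adjusted p-values of up to 0.0907). Elk4 had 8.88 ± 0.608 and 7.19 ± 0.543 FPKM and was not called (log2 fold change -0.27, adjusted p = 0.0762), although its OI + Met samples lay below every control. With the GC correction Elk4 was called lower (log2 fold change -0.34, adjusted p = 0.0115). With all samples and no such correction, 2 of the 5 tested partners were higher and 0 lower, against 13.2% and 9.28% of all tested genes.

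Acta2 and Actg2 encode the smooth muscle actins, Acta2 the vascular form and Actg2 the enteric form, which build the filaments that myosin pulls on. Acta2 (ENSMUSG00000035783, chromosome 19, 34241090 to 34255336) had 219, 266 and 187 FPKM in OI and 1213, 1216 and 1181 FPKM in OI + Met. The lowest sample with metformin was several times the highest control. The means were 224 ± 39.7 and 1204 ± 19.3 FPKM (SD, n = 3 each), which on the log2 scale is a rise of 2.43 with a standard error of 0.14 (limma-trend adjusted p = 0.000125). As a share of all reads, Acta2 went from 0.0406% ± 0.00682 to 0.214% ± 0.00139 (SD, n = 3 each). Actg2 (ENSMUSG00000059430, chromosome 6, 83512905 to 83536265) had 15.1, 20.8 and 14.9 FPKM in OI and 80, 74.6 and 72.3 FPKM in OI + Met. It was far lower than Acta2 in every sample, and its groups did not overlap. Its means were 16.9 ± 3.38 and 75.6 ± 3.97 FPKM (adjusted p = 0.000199), and the log2 fold change was 2.11 with a standard error of 0.14. Both calls held in all 14 alternatives, with log2 fold changes of 2.31 to 2.56 for Acta2 and 2.03 to 2.26 for Actg2. The transcripts of the actins are alike, with 84.1% identity over 1147 bases between Acta2 and Actg2 and 83.8% over 1111 bases between Acta2 and Actb, but no transcript of another gene was at least 95% identical over 200 bases to either of the members.

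The other actins gave a measure within each sample that does not depend on library scaling. The cytoplasmic actins, which every cell uses, also rose: Actb from 525 ± 27.6 to 1176 ± 44.7 FPKM (log2 fold change 1.16, limma-trend adjusted p = 0.000395) and Actg1 from 267 ± 36.9 to 691 ± 28.4 FPKM (log2 fold change 1.38, adjusted p = 0.00055). Actb has 2 and Actg1 has 8 genes with near-identical transcripts, so some of their reads may be placed elsewhere. The sarcomeric actins were near 0, with at most 13 reads of Acta1 and 1 read of Actc1 in a sample. Within the 6 actins, Acta2 held 20.6%, 24.1% and 20.2% of the summed FPKM in OI and 37.9%, 38.1% and 38.7% in OI + Met. In OI, Actb was the most abundant actin in each sample, and in OI + Met Acta2 and Actb stood side by side. The log2 ratio of Acta2 to Actb was -1.26, -1.05 and -1.41 in OI and -0.01, 0.05 and 0.06 in OI + Met, a difference of 1.28 (standard error 0.11, exact two-sided permutation p = 0.1). That of Acta2 to Actg2 differed by 0.26 (standard error 0.07, exact permutation p = 0.1). With 3 samples against 3, 0.1 is the smallest p-value that this test can give, and the 7 ratios tested all had it, also after Benjamini-Hochberg adjustment over the 7.

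**Figure D3:**
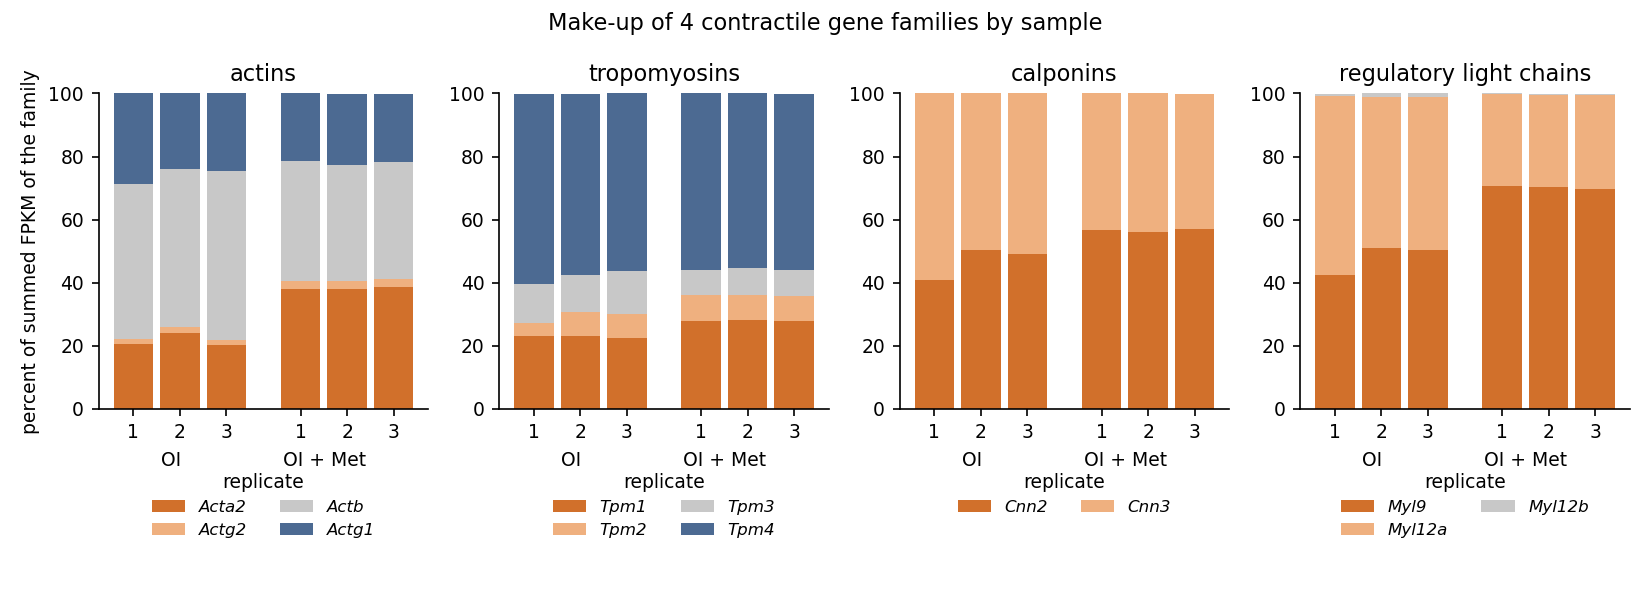
Share of each gene in the summed FPKM of its family (y axis, percent) for actins, tropomyosins, calponins and myosin regulatory light chains, in each of the 6 samples. Acta2 grows from at most 24.1% to at least 37.9% of actins and Myl9 from at most 51.1% to at least 69.8% of the light chains. Genes under 0.1% in every sample are not drawn.

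Myl9 encodes the regulatory light chain whose phosphorylation switches on smooth muscle and non-muscle myosin. Myl9 (ENSMUSG00000067818, chromosome 2, 156775420 to 156781658) had 42.7, 65 and 53.6 FPKM in OI and 269, 262 and 249 FPKM in OI + Met. All samples with metformin were well above all controls. The means were 53.8 ± 11.1 and 260 ± 10.2 FPKM (SD, n = 3 each), which on the log2 scale is a rise of 2.27 with a standard error of 0.16 (limma-trend adjusted p = 0.000207), and the log2 fold change was 2.12 without control replicate 1. The call held in all 14 alternatives. The related regulatory light chain gene Myl12a rose from 56.5 ± 4.71 to 108 ± 1.88 FPKM (log2 fold change 0.93, adjusted p = 0.000857). The essential light chain Myl6 had 159 ± 40.9 and 239 ± 10.9 FPKM and was not called (log2 fold change 0.62, adjusted p = 0.0688), and it was called without control replicate 1 (log2 fold change 0.39, adjusted p = 0.00463), with the GC correction (0.58, adjusted p = 0.0262) and with voom (0.62, adjusted p = 0.0457). Myl12b, at about 1 FPKM, was not called (log2 fold change 0.13, adjusted p = 0.514). The transcripts of Myl12a and Myl12b are 96.9% identical over 648 bases, so their reads may be split. Myl9 made up 42.4% to 51.1% of the 3 regulatory light chain genes in OI and 69.8% to 70.8% in OI + Met. The log2 ratio of Myl9 to Myl6 was -1.39, -1.52 and -1.73 in OI and 0.10, 0.15 and 0.12 in OI + Met, a difference of 1.67 (standard error 0.10, exact permutation p = 0.1), the largest of the 7 ratios.

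Tropomyosins lie along actin filaments and set which myosins and other proteins can bind them. Tpm1 (ENSMUSG00000032366, chromosome 9, 67022590 to 67049406) had 77.2, 77.7 and 64 FPKM in OI and 165, 168 and 163 FPKM in OI + Met, with no overlap. Its means were 73 ± 7.77 and 165 ± 2.72 FPKM, which on the log2 scale is a rise of 1.17 with a standard error of 0.10 (limma-trend adjusted p = 0.000514). Tpm2 (ENSMUSG00000028464, chromosome 4, 43514711 to 43523765) had 14.3, 24.6 and 21.6 FPKM in OI and 47.3, 46.2 and 46.5 FPKM in OI + Met. Control replicate 1 was the lowest, as for Srf. The means of Tpm2 were 20.2 ± 5.34 and 46.7 ± 0.58 FPKM (adjusted p = 0.00554), and the log2 fold change was 1.20 with a standard error of 0.19, or 0.98 without control replicate 1. Tpm4 (ENSMUSG00000031799, chromosome 8, 72134975 to 72153142) had 202, 192 and 159 FPKM in OI and 329, 329 and 326 FPKM in OI + Met. Its means were 184 ± 22.3 and 328 ± 1.88 FPKM, and its log2 fold change of 0.84 with a standard error of 0.11 (adjusted p = 0.00307) was the smallest of the 3. Of its exonic bases 6.08% also lie in the opposite-strand gene Gm26586, and it is 96.8% identical over 743 bases to Gm7809, which had 5 to 21 reads in a sample. All 3 calls held in all 14 alternatives.

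Tpm3, the tropomyosin gene outside the members, had 39.8 ± 1.32 FPKM in OI and 48.8 ± 1.97 in OI + Met (log2 fold change 0.29, limma-trend adjusted p = 0.045). When samples were left out singly, that call survived the removal of control replicate 1 and was lost on the removal of any other sample (adjusted p-values of up to 0.199). Tpm3 shares 99.1% identity over 2108 bases with Tpm3-rs7, which had 394 to 490 reads in a sample. The log2 ratio of Tpm1 to Tpm3 was 0.91, 0.97 and 0.73 in OI and 1.80, 1.72 and 1.76 in OI + Met, a difference of 0.89 (standard error 0.08, exact permutation p = 0.1). The ratio of Tpm1 to Tpm4 differed by 0.35 (standard error 0.03) and that of Tpm2 to Tpm4 by 0.41 (standard error 0.30, exact permutation p = 0.1 for both). The high error of the latter came with control replicate 1, whose log2 ratio was -3.82 where the other controls had -2.96 and -2.88. Without that library the difference was 0.11. Among the 4 tropomyosins Tpm4 stayed the most abundant per length, with 56.2% to 60.3% in OI and 55.4% to 55.9% in OI + Met. The share of Tpm1 was 22.6% to 23.2% and 27.9% to 28.3%, and that of Tpm3 was 11.9% to 13.6% and 8.07% to 8.59%.

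Calponins bind actin and hold back actomyosin. The genes of the members divided sharply. Cnn2 (ENSMUSG00000004665, chromosome 10, 79988584 to 79996062), the form of non-muscle cells, had 94.9, 150 and 124 FPKM in OI and 254, 257 and 251 FPKM in OI + Met. Every sample with metformin was above every control. The means were 123 ± 27.7 and 254 ± 3.31 FPKM, which on the log2 scale is a rise of 1.06 with a standard error of 0.17 (limma-trend adjusted p = 0.00555), and 0.89 without control replicate 1. Cnn1 (ENSMUSG00000001349, chromosome 9, 22099216 to 22109630), the form that marks differentiated smooth muscle, had 0, 3 and 0 reads in OI and 3, 2 and 4 reads in OI + Met. These are at or near the limit of 3 reads, so it was not tested, no fold is given, and a difference could not be seen at this depth. Cnn3, a further non-muscle form, rose from 138 ± 9.93 to 195 ± 6.53 FPKM (log2 fold change 0.50, adjusted p = 0.0109). Its call was lost without each of the metformin replicates (adjusted p-values of up to 0.0695). Cnn2 made up 40.8% to 50.4% of calponin FPKM in OI and 56.1% to 57.1% in OI + Met.

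Tagln, whose protein transgelin bundles actin and is another marker of smooth muscle, was at a very low level. Tagln (ENSMUSG00000032085, chromosome 9, 45929619 to 45936058) had 0.468, 0.432 and 0.409 FPKM in OI and 0.887, 0.993 and 1.06 FPKM in OI + Met, from 17, 18 and 16 reads and from 35, 43 and 41 reads. The groups did not overlap, and the means were 0.436 ± 0.0297 and 0.98 ± 0.0865 FPKM (2.24-fold). The log2 fold change on log2(FPKM + 1) was 0.46 (standard error 0.10, limma-trend adjusted p = 0.0156), a scale that understates the change of so low a gene. On log2(FPKM + 0.1) it was 1.01 and with voom on the reads 1.14, and both fits called it (adjusted p = 0.0193 and 0.0187). The call was lost without metformin replicate 1 (adjusted p = 0.053), 2 (adjusted p = 0.0699) or 3 (adjusted p = 0.0748). The level of Tagln is uncertain, because 67.9% of its exonic bases in GENCODE M21 also lie in exons of genes on the opposite strand, Gm48529 and Pcsk7. Gm48529 had 5 to 29 reads in OI and 26 to 33 in OI + Met. Pcsk7, which overlaps Tagln by 108 bases, had 507 to 651 reads in OI and 687 to 781 in OI + Met. Whether counting used strand is not given in the sources used here. The related Tagln2, which is found in many cell types and has no such overlap, rose from 81.5 ± 9.08 to 130 ± 7.94 FPKM (log2 fold change 0.67, adjusted p = 0.00719). The log2 ratio of Tagln to Tagln2 differed by 0.49 (standard error 0.18, exact permutation p = 0.1). Its groups were barely apart, with -7.25 in control replicate 1 and -7.21 in metformin replicate 1. They overlapped with a pseudocount of 0.1.

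The order of the members by level was also compared, since FPKM is scaled by length. In OI the order was Acta2, Tpm4, Cnn2, Tpm1, Myl9, Srf, Tpm2, Actg2, Tagln and Cnn1. The ranges of Acta2 and Tpm4 overlapped there, as did those of Tpm1 and Myl9, of Srf and Tpm2, and of Tpm2 and Actg2. In OI + Met the order was Acta2, Tpm4, Myl9, Cnn2, Tpm1, Actg2, Srf, Tpm2, Tagln and Cnn1, and only Myl9 and Cnn2 overlapped. Myl9 moved from place 5 to place 3 and Actg2 from place 8 to place 6. The SD of FPKM was smaller in OI + Met than in OI for 7 of the 9 tested members, as for Tpm4 (1.88 against 22.3) and Srf (0.808 against 9.55). It was larger for Actg2 (3.97 against 3.38) and Tagln (0.0865 against 0.0297). The share of all tested genes with a smaller SD was not computed. Across the 12681 tested genes the OI + Met samples had Pearson correlations of at least 0.992 with each other. The controls had 0.952 to 0.988, so the smaller spread is not shown to be particular to the members.

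**Figure D4:**
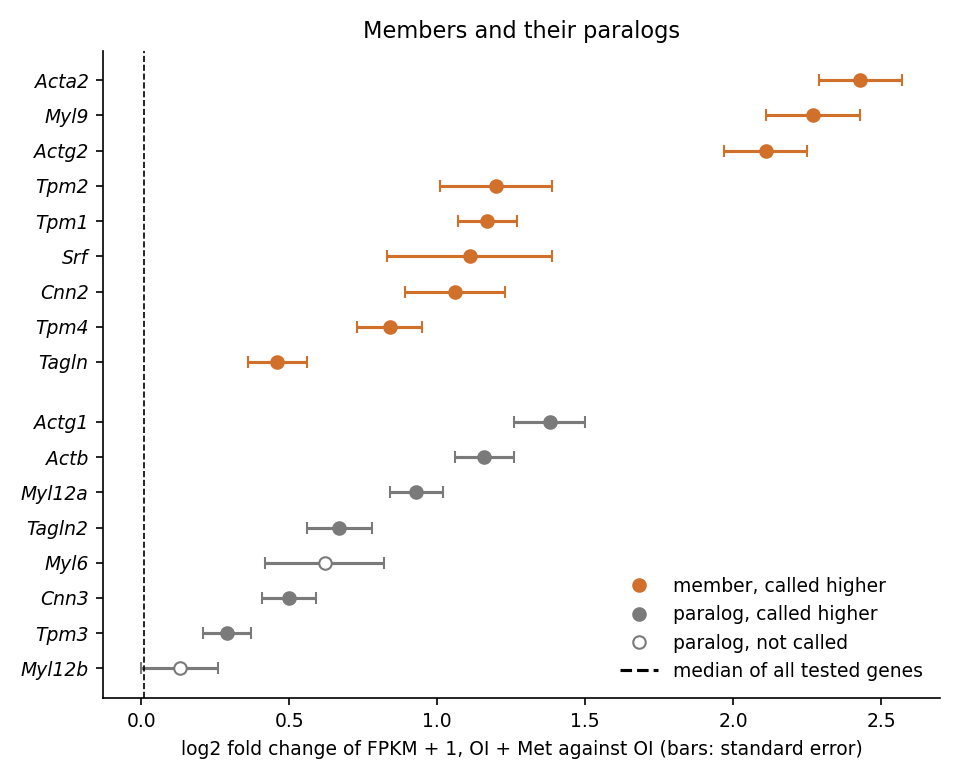
Log2 fold change on log2(FPKM + 1) with its standard error for the 9 tested members and the 8 tested paralogs (x axis), with the median of all tested genes as a dashed line. Acta2, Myl9 and Actg2 lie above 2, and the highest paralog is Actg1 at 1.38. Open symbols were not called.

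The other genes of the pathway were taken from lists chosen with earlier results of these data known, so they are described by counts. Of all tested genes 13.2% were called higher and 9.28% lower. Of 10 related genes of the same families, 8 were tested, and 6 were higher, 0 lower and 2 not called (median log2 fold change 0.65). Of 10 other contractile genes of smooth muscle, 9 were tested, and 5 were higher and 0 lower (median 0.37). Without each of the metformin replicates 3 were higher, in fits that called 938 to 985 of all genes higher (1670 with all samples). Smtn went the other way, with 41.4 ± 7.76 FPKM in OI and 33.1 ± 0.434 in OI + Met and overlapping groups. It was not called (log2 fold change -0.30, limma-trend adjusted p = 0.198). Without control replicate 1 it was called lower, and so it was with the GC correction, with or without the replicate block. Lmod1, which encodes the actin nucleator leiomodin, rose from 2.57 ± 0.509 to 12.6 ± 0.363 FPKM (log2 fold change 1.94, limma-trend adjusted p = 0.000157). Synpo2, which encodes an actin-binding Z-disc protein, rose from 0.395 ± 0.057 to 1.73 ± 0.109 FPKM (log2 fold change 0.97, adjusted p = 0.000736, or 2.14 with voom, since log2(FPKM + 1) understates the change of a low gene). Like Tagln, Synpo2 passed the FPKM limit only because of its level with metformin, and the count of 5 includes it. Csrp1 (0.82) and Tgfb1i1 (0.59), genes of LIM domain proteins, rose as well, and so did the myosin light chain kinase Mylk (0.37, adjusted p = 0.0213), named because the count was small. The calls of Tgfb1i1 and Mylk were lost without each of the metformin replicates, and that of Mylk without control replicate 2 too (adjusted p-values of up to 0.0653 and 0.1). The smooth muscle myosin heavy chain Myh11, the defining gene of that cell type, had 5 reads in OI and 6 in OI + Met over 3 samples each and was not tested.

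Of 12 genes of the actin cytoskeleton and of adhesions, all were tested, and 9 were higher and 0 lower (median log2 fold change 0.72). The share of all tested genes called higher was 13.2%. Without control replicate 2, and without each of the metformin replicates, 5 were higher. These fits called 938 to 1255 of all genes higher, against 1670 with all samples. The highest were Filip1l (1.29), the adhesion protein gene Vcl (vinculin, 1.19), the non-muscle myosin gene Myh10 (1.11) and the filament crosslinker gene Flna (filamin A, 1.00), with limma-trend adjusted p-values of 0.000165, 0.0012, 0.000351 and 0.00103. Filip1l was low, with 0.783 ± 0.0504 FPKM in OI and 3.35 ± 0.0805 in OI + Met (4.28-fold), so that its value on log2(FPKM + 1) understates its change, and with voom it was 2.09. Each of these 4 kept its call in all 14 alternatives.

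The immediate early genes, which serum response factor controls together with the Elk factors, had 6 of 8 tested genes higher and 1 lower (median log2 fold change 1.12). Over all tested genes the shares were 13.2% and 9.28%. Fos rose from 11.4 ± 4.14 to 102 ± 16.1 FPKM (log2 fold change 3.11), Fosb by 2.15, Egr1 by 1.28 and Ier2 by 1.17, with limma-trend adjusted p-values of 0.000444, 0.0014, 0.0138 and 0.00196. The call of Egr1 was lost without metformin replicate 1 or 2 (adjusted p-values of up to 0.0604). Mcl1, a survival gene of the Bcl-2 family, fell by 0.45 on the log2 scale (adjusted p = 0.0224). Its call was lost with the replicate number as a block, without control replicate 2 and without each metformin replicate (adjusted p-values of up to 0.107).

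**Figure D5:**
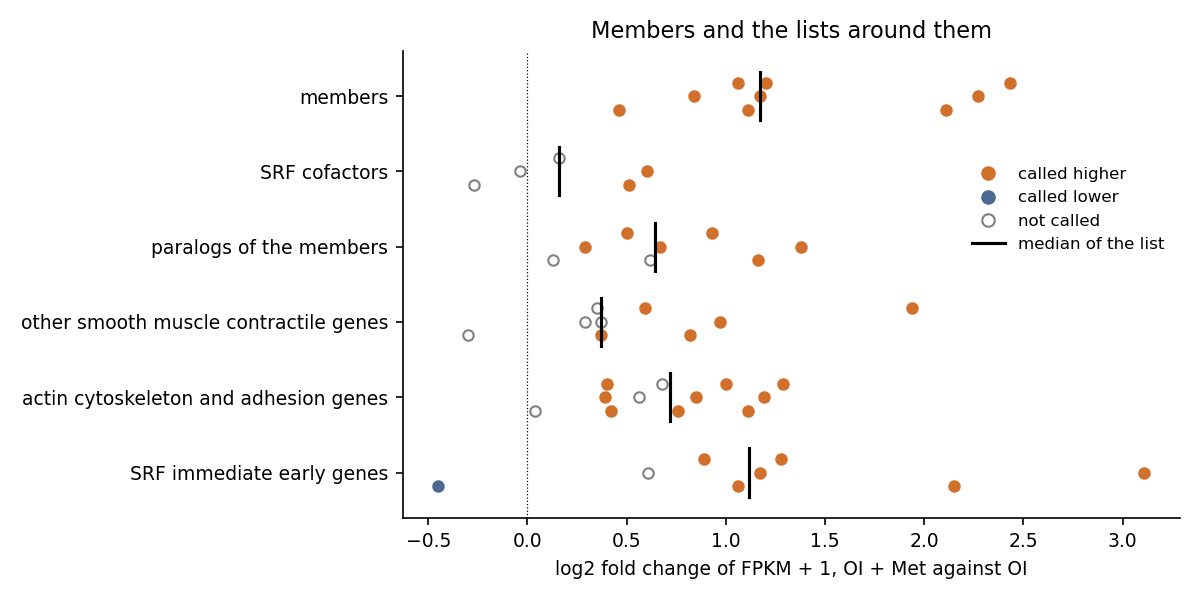
Log2 fold change on log2(FPKM + 1) of each tested gene (x axis) in the members and in 5 lists around them, with the median of each list as a black line. Medians run from 0.16 for the SRF cofactors to 1.17 for the members, and the filled blue point is Mcl1, the gene called lower.

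Markers of cell types were set beside these results, since several members mark smooth muscle. Of 6 genes of smooth muscle and pericytes, Kcnj8 was at 0 in every sample, Rgs5 had at most 4 reads and Myh11 at most 5. Mcam, too low to be tested, had 21, 17 and 14 reads in OI and 52, 31 and 29 in OI + Met, with no overlap. The summed level was 19.6 to 28.1 FPKM in OI and 28.2 to 30.5 in OI + Met, most of it from Cspg4. Of the 2 tested, Notch3 rose from 3.48 ± 0.858 to 7.64 ± 0.278 FPKM (log2 fold change 0.96, limma-trend adjusted p = 0.00397) and Cspg4 was not called (0.10, adjusted p = 0.638). The summed levels of 7 skeletal muscle markers were at most 0.193 FPKM in OI and 0.208 in OI + Met, with Myod1, Myog, Myf5 and Pax7 at 0 reads, and those of 4 endothelial markers at most 0.106 and 0.131 FPKM. Of 4 macrophage markers (1.97 to 2.18 and 1.12 to 1.36 FPKM in sum) only Cd68 was tested, and it was lower (log2 fold change -0.49, adjusted p = 0.0102, lost without metformin replicate 1, with adjusted p-values of up to 0.0581). Csf1r, too low to be tested, went the other way without overlap, with 1, 1 and 3 reads in OI and 6, 8 and 4 in OI + Met. Of 4 adipocyte markers (4.8 to 10.2 and 6.2 to 7.57 FPKM) only Cebpa was tested, and it was not called (log2 fold change -0.10, adjusted p = 0.813), though it was without control replicate 1 (-0.40, adjusted p = 0.0156). The label of osteoblasts was checked with 7 markers, which were all tested. Their summed level was 9047 to 10750 FPKM in OI and 5415 to 5659 in OI + Met. Most of the sum in OI came from Spp1, which had 6565 to 8357 FPKM there and 2680 to 2727 in OI + Met. Col1a1 went the other way, from 927 to 1585 FPKM in OI to 2366 to 2576 in OI + Met, so the sum does not stand for all 7 markers. Runx2, Sp7, Alpl and Bglap were not called, but without control replicate 1 Bglap was lower (-0.91, adjusted p = 0.00314), and Sp7 was higher without control replicate 1 or 2 (0.27 and 0.45, adjusted p = 0.023 and 0.0343), with the GC correction (0.31, adjusted p = 0.0204) and with voom (0.36, adjusted p = 0.0474). The OI + Met samples of Runx2 lay below every control (25.8 to 27.4 against 28.6 to 34.1 FPKM). Those of Sp7 lay above every control (52.1 to 54 against 36.8 to 47.1 FPKM), while the groups of Alpl and Bglap overlapped. Col1a1 rose (log2 fold change 0.93, adjusted p = 0.023). Its call was lost with no filter on low values and without each of the metformin replicates, with values of up to 0.186 over the alternatives. The bone matrix genes Ibsp and Spp1 fell (-1.60 and -1.50, adjusted p = 0.000578 and 0.000471), the call of Spp1 being lost with no filter on low values (adjusted p = 0.198). The part of any of these in the levels of the members was not tested.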

How the data were processed

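RNA was sequenced from 6 samples of MC3T3-E1 cells, grouped by the treatment in the labels. The authors deposited 1 table with a value per gene and sample, no unit and 0 other columns of sample values. FPKM was inferred from the deposited values: multiplied by gene length, 100% of those above 0 fell on whole multiples of a single step within each sample (tolerance 0.001). The submitters' processing notes name Bowtie 0.12.2, mm8 and mm9, with no role, whereas 53499 of 54532 genes, and 9 of the 10 members, have the coordinates of GENCODE M21 (GRCm38). The authors tested with DESeq2. Because the deposited values are FPKM, limma 3.58.1 (R 4.3.3) with an intensity trend was used here as the main test, on log2(FPKM + 1), over the 12681 genes whose mean FPKM reached 0.5, adjusted by Benjamini-Hochberg, threshold 0.05.

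Members and lists were chosen with earlier results of these data known. Genes named by rule are the members, their paralogs, Srf partners and the 4 called genes with the largest change in each direction of each other list. Mylk, Smtn, and the cell type markers and Myh11 that were not called or not tested, were named after their values were seen. Replicate numbers come from the labels, which do not say that they pair samples. Results were recomputed with 0.1 as pseudocount, with total reads as the scale, without the filter, with a filter of 10 reads per sample, with the replicate number as a block, with GC content corrected per library (spline, 5 degrees of freedom), with both of these, with voom on recovered reads, and without each sample. Ratios were tested by exact permutation (scipy 1.17.1). Near-identical transcripts were found with BLAST+ 2.17.0 (95% identity over 200 bases). The fits were also run on simulated reads with known changes. Those had no GC bias and no library that stood apart, so they do not show how the fits behave with control replicate 1. The labels do not say that the samples were separate cultures, so p-values may measure technical spread, while the study calls them biological replicates. A planned gene list is not reported here.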

Additional observations from a re-analysis of the deposited data

How the results depend on the processing

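Of 126 refits of the 9 tested members (14 alternatives each), 116 kept direction and call, 10 lost the call and 0 changed direction. The members called higher were 9 with all samples, 8 with the replicate block (Tagln lost, adjusted p = 0.0698), 8 with that block and the GC correction, 8 with no filter on low values (Srf lost, adjusted p = 0.0758), and 7 to 9 over the 6 fits that each left out a sample. Of all genes 1670, 1161, 1703 and 1432 were called higher in the first 4 of these fits. Deviations of same-numbered samples from their group means had correlations of -0.0533, 0.000265 and -0.0549 across genes. With 3 samples per group, and control replicate 1 apart from the other controls, these values cannot tell whether the numbers pair the samples. With the block the genes called lower went from 1177 to 698 and the other listed genes called lower from 1 to 0. Tpm3 and Mylk were not called with the block (adjusted p = 0.158 and 0.0877) or with it and the GC correction (0.0918 and 0.0598). The GC correction, which moved the median of all genes by -0.0542, gave 2433 lower genes and 3 listed genes lower, and with the block 1888 and 3. Leaving out each sample, genes called higher ranged from 938 to 2969 (1670 with all samples), genes called lower from 495 to 2590, other listed genes called higher from 18 to 34 (28) and lower from 0 to 2. Both maxima over all genes came without control replicate 1. The cause was not tested. Among the other genes, signs changed only for genes that were not called with all samples. Over the fits that left out a sample, log2 fold changes ran from -0.10 to 0.34 for Mkl1, -0.085 to 0.021 for Mkl2, -0.022 to 0.22 for Cspg4, -0.40 to 0.078 for Cebpa, -0.91 to 0.12 for Bglap and -0.024 to 0.12 for Pdlim5. For Cebpa the value was also above 0 without control replicate 3 (0.023), and Pdlim5 had -0.0096 with the GC correction, with or without the block. Of the other smooth muscle contractile genes, 3 to 7 were higher and 0 to 1 lower without a sample, and 1 was lower with the GC correction, with or without the block. The 7 ratios kept their sign in every alternative, and with a pseudocount of 0.1 the groups stayed apart for 6 of them, all but Tagln to Tagln2. Depth limits Cnn1, Myocd and Tagln.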
